A study of Mus musculus with 30 samples.

Results

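A set of 10 genes of red cell development was followed through every library of the series. It holds the erythroid regulators Gata1, Klf1, Epor and Gfi1b, the carbonic anhydrases Car1 and Car2, and adult globins, of which Hba-a1 and Hba-a2 encode alpha chains and Hbb-b1 and Hbb-bs beta chains. They were found by symbol, and all 10 of the 10 have a row among the 23060 genes of the table. The table gives FPKM, the fragments of a gene scaled by its transcript length and by the fragments mapped in the library, for 30 RNA sequencing libraries of mouse blood-forming cells. LKS-SLAM cells, the sorted marrow fraction richest in long-term haematopoietic stem cells, gave 3 Control libraries (wild type) and 3 rEC libraries (genotype given as derived, read here as descending from converted adult endothelial cells). Of these rEC libraries, 2 is titled 47G1 Primary and 3 Secondary, read here as primary and secondary recipients, and the title of 1 names neither. Library 2 is read here as a single clone, because the title of another library calls 47G1 clonal. The same 2 genotypes were sorted from blood, where 2 Control and 2 rEC libraries hold Gr1+ Cd11b+ (myeloid) cells, 3 of each hold B220+ (B) cells, 2 of each Cd3+ Cd4+ T cells and 3 of each Cd3+ Cd8+ T cells. Among the rEC blood libraries, B library 2 is titled 47G1 Primary. B library 3, CD4 library 2 and CD8 libraries 2 and 3 are titled Secondary, and the other titles name neither. FGRS KLS names 3 libraries of adherent derived cells, converted with Fosb, Gfi1, Runx1 and Spi1, grown with human umbilical vein endothelial cells (HUVEC) and taken on day 28. One further B220+ library, titled as clone 47G1 but annotated as wild type, fits no group and entered no test. Mouse strain and age are not given in the sources used here, and neither is it said whether libraries of a group came from different animals, so p-values measure the spread between libraries.

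In red cell development GATA1 and KLF1 bind together at many erythroid genes, the erythropoietin receptor EPOR carries the survival signal of committed progenitors, and GFI1B is a repressor needed for erythroid and megakaryocytic cells. Carbonic anhydrases interconvert carbon dioxide and bicarbonate. CAR2 is made by many blood cell types and is abundant in red cells, and CAR1 is largely a red cell enzyme. Globin mRNA accumulates late, together with ALAS2, the erythroid enzyme that starts heme synthesis, and stays in reticulocytes after the nucleus is lost, so that it outlasts the regulators.

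The libraries had 10165 to 12550 genes at 1 FPKM or more, and relative depth, read from the value of single fragments at low genes, ran from 0.588 to 1.13 of Control B library 2. Some libraries stood apart, and the results that rest on them are given with and without them. The rEC LKS-SLAM library 2 was the highest of the 6 LKS-SLAM libraries for all 16 of 16 cell cycle genes listed and the lowest for all 8 of 8 stem cell markers (Kit 63.5 FPKM against 109 to 155 in the other 5), where over all 13632 genes at 1 FPKM in any of the 6 libraries 30.4% were highest and 43.4% lowest in it. Control LKS-SLAM libraries 1 and 2 held transcripts of eosinophils and basophils (Prg2 1863 and 3398 FPKM, Mcpt8 258 and 176) that were low in library 3 (31.5 and 3.15). The rEC B library 1 held T cell transcripts (Cd3e 198 FPKM). The 8 stem cell markers summed to 550 to 596 FPKM in native LKS-SLAM libraries, 128 to 850 in rEC ones (lowest in library 2) and 129 to 179 in FGRS KLS libraries. Ly6a, 1 of the 8, had a mean of 212 FPKM in Control B and 226 in Control CD4 cells. The sums of FGRS KLS cells and rEC library 2 lay below these means of Ly6a alone. The sum therefore does not set those libraries apart from lymphocytes and is no check of the labels. In such sorted bulk samples fewer cells of a type and less RNA per cell cannot be told apart.

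In native LKS-SLAM cells all 4 regulators were present at moderate levels. Gata1, a zinc finger factor of the erythroid and megakaryocytic lineages (chrX:7959260-7978071, minus strand, GENCODE M21 on GRCm38), stood at 26.5, 25.2 and 10.5 FPKM in Control libraries 1, 2 and 3. Klf1 (chr8:84901928-84905291, plus strand) stood at 15.1, 28.5 and 23.4 FPKM there. Epor (chr9:21958897-21963506, minus strand) was the steadiest of the 4, at 18.2, 23.8 and 18.0 FPKM. Gfi1b (chr2:28609450-28621982, minus strand) stood at 21.0, 21.7 and 8.99 FPKM. The 3 native libraries thus gave 20.7 ± 8.91 FPKM for Gata1, 22.3 ± 6.80 for Klf1, 20.0 ± 3.33 for Epor and 17.2 ± 7.15 for Gfi1b (mean ± SD, n = 3), levels of the same order for 4 genes compared per length. Library 3 was the lowest for Gata1 and Gfi1b, and was also the library with the fewest eosinophil and basophil transcripts, and their part in this was not tested.

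The rEC LKS-SLAM libraries spread far more widely than the native ones. Gata1 stood at 4.84, 108 and 0.805 FPKM in rEC libraries 1, 2 and 3, and Klf1 at 5.49, 201 and 1.06. Epor stood at 8.08, 116 and 6.02 FPKM, and Gfi1b at 15.8, 80.5 and 15.4. Library 2 was above every native library for all 4 genes, 4.07 times the highest other LKS-SLAM library for Gata1, 7.03 times for Klf1, 4.88 times for Epor and 3.71 times for Gfi1b. Libraries 1 and 3 were below every native library for Gata1, Klf1 and Epor, and inside the native range for Gfi1b. The mean of the 3 rEC libraries was therefore 69.1 ± 114 FPKM for Klf1 and 37.9 ± 60.8 for Gata1 (SD, n = 3), with an SD above the mean.

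The promoters of the 4 regulators are printed because these genes moved together from library to library, with Pearson's r of log2(FPKM + 1) over the 30 libraries between 0.857 (Gata1 and Gfi1b) and 0.964 (Epor and Gfi1b). These correlations are a description: libraries of 1 group and 1 sort share their source. They span 21 blood libraries, where the 4 genes were at 2.96 FPKM or less, and rEC LKS-SLAM library 2, where all 4 were highest. Within native LKS-SLAM cells the order of libraries differed, as library 1 was the highest for Gata1 and the lowest for Klf1. Each line is the 250 bases before the RefSeq start of the gene (GRCm38.p6), written 5′ to 3′ on the gene's strand, for Gata1 chrX:7967911-7968160, minus strand, for Klf1 chr8:84901732-84901981, plus strand, for Epor chr9:21963577-21963826, minus strand and for Gfi1b chr2:28621983-28622232, minus strand. RefSeq starts need not be those of GENCODE above. Capitals mark matches, on either strand, to the GATA word (AGATAA or TGATAA) and to the CACCC-type word CCNCNCCC bound by the KLF family. Overlapping matches are merged.
Gata1: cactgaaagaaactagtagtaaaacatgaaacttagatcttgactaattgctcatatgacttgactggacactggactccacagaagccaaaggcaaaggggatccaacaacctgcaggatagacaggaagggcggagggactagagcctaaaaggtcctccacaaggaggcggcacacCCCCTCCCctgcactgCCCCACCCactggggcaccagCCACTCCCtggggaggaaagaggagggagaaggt
Klf1: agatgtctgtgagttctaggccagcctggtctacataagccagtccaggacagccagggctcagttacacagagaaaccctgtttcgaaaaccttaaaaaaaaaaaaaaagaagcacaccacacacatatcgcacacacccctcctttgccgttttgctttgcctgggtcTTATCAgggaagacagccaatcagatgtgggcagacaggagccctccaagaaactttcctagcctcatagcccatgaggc
Epor: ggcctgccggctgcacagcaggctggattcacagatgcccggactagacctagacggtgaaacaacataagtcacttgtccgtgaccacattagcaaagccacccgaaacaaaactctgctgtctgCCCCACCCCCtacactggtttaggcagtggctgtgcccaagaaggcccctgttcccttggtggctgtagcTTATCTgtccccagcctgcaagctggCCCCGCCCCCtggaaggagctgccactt
Gfi1b: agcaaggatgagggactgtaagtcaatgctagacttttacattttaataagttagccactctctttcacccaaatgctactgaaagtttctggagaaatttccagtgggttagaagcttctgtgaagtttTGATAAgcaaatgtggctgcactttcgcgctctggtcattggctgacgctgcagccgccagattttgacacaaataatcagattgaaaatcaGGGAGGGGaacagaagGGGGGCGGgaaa
Gata1 held no GATA word and 3 CACCC-type matches, and Klf1 held 1 GATA word and none of the other. Epor held 1 and 4, and Gfi1b 1 and 2. Promoters were found for 7 of the 10 genes, and 6 of these 7 held the GATA word (16.6% of 32851 promoters of the same length), 4 held the CACCC-type word (45.9%) and 3 held both (4.52%). Among the 7 are Hba-a1 and Hba-a2, whose windows share an identical run of 247 bases, so their GATA words are not separate cases. A match of letters is a description of the window and not a bound site.

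The carbonic anhydrases lie on chromosome 3, with 77.9 kb between the end of Car1 (chr3:14766216-14808368, minus strand) and the start of Car2 (chr3:14886273-14900770, plus strand), and differed in how they varied. Car1 stood at 110, 284 and 39.9 FPKM in the native LKS-SLAM libraries and at 15.2, 1914 and 1.81 in rEC libraries 1, 2 and 3. Car2 stood at 433, 519 and 406 FPKM in the native libraries and at 476, 924 and 307 in the rEC ones. Both were highest in rEC library 2, Car1 at 6.73 times and Car2 at 1.78 times the highest other LKS-SLAM library. Between the highest and lowest of the 6 libraries Car1 differed 1060-fold and Car2 3.01-fold. Car1 followed Klf1 closely over the 30 libraries (r = 0.980), and Car2 less so (r = 0.829). These r span blood libraries, where Klf1 and Car1 were near 0, and rEC LKS-SLAM library 2, where all of these genes were highest.

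**Figure D1:**
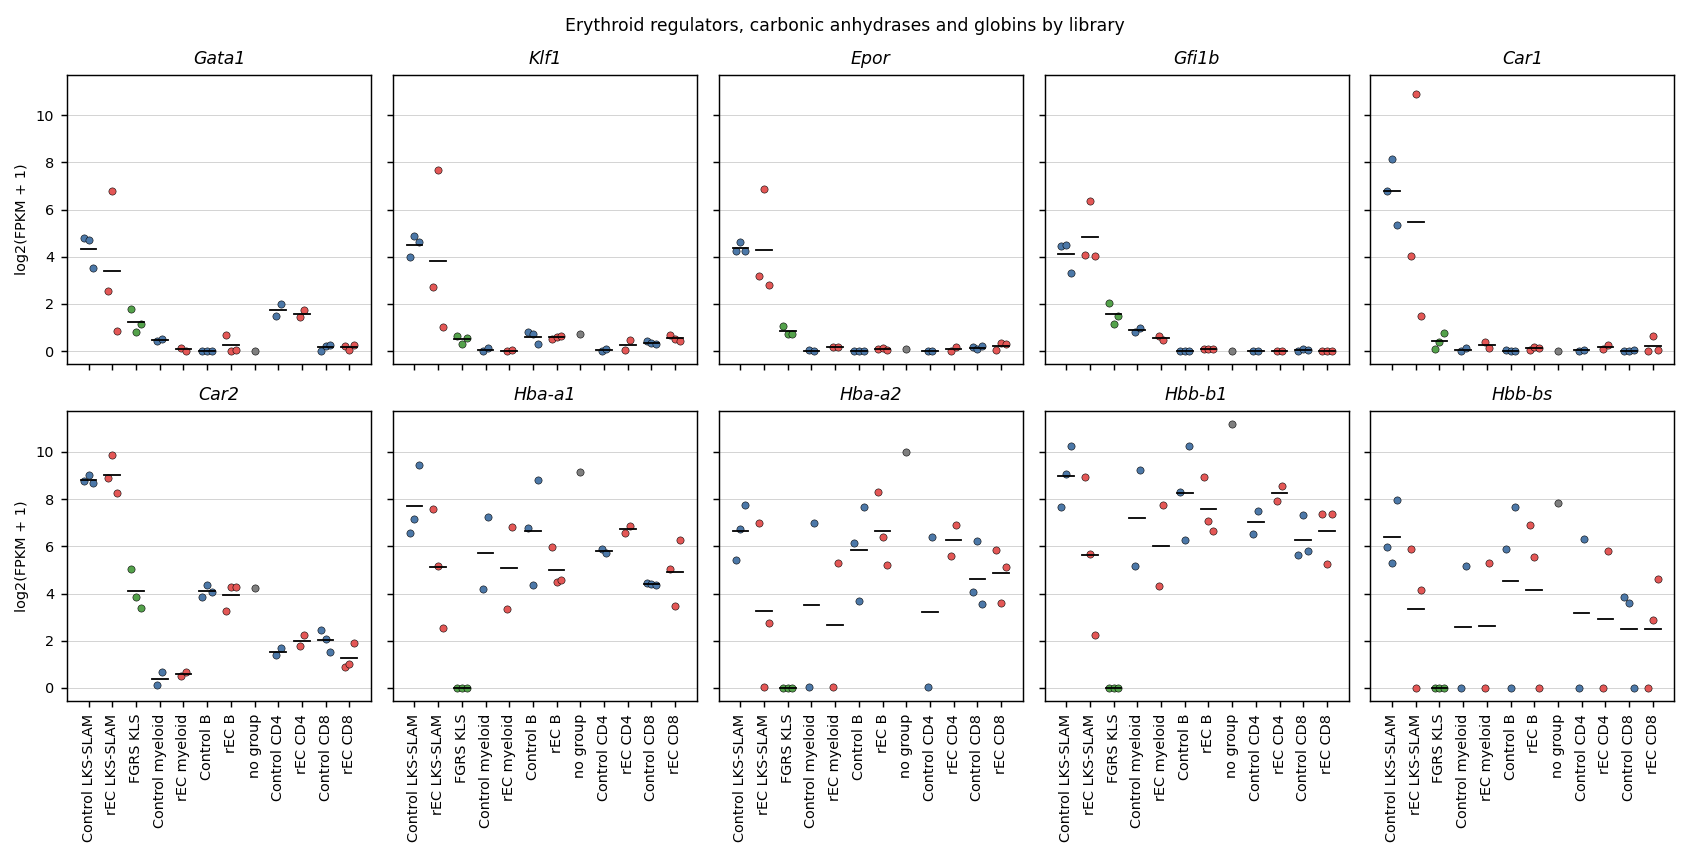
Each panel plots 1 gene as log2(FPKM + 1) on the vertical axis, with 1 point per library in 12 columns (blue Control, red rEC, green FGRS KLS, grey the library in no group) and a bar at the group mean. The 4 regulators and Car1 are near 0 in blood and spread widely in rEC LKS-SLAM cells, where library 2 is the top point at 108 FPKM for Gata1 and 1914 for Car1. The globins scatter in every blood group and lie at 0 in the 3 FGRS KLS libraries.

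Between rEC and Control LKS-SLAM cells none of the 10 genes passed (limma on log2(FPKM + 1), adjusted p under 0.05), where 1.32% of the 14083 genes tested passed. At an unadjusted p under 0.05 there were 2 of the 10 (Hba-a1 and Hbb-b1), and 9.41% of all genes. Because 1 library was so high and 2 were low, the mean FPKM and the mean of log2 values pointed in opposite directions for Gata1, Klf1, Epor and Car1. Klf1, for example, had the higher mean FPKM in rEC cells (69.1 against 22.3) and a log2 difference of -0.70 ± 0.88 (SE, adjusted p = 0.866). For Gata1 the difference was -0.95 ± 0.80 (adjusted p = 0.797), for Epor -0.09 ± 0.57 (0.984), for Car1 -1.30 ± 1.27 (0.825), for Gfi1b 0.72 ± 0.40 (0.638) and for Car2 0.19 ± 0.40 (0.928). The median over the 10 genes was -1.12, against -0.05 over all genes.

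Without rEC LKS-SLAM library 2, 4 of the 10 genes passed and all were lower in rEC cells, where 5.69% of all genes tested passed as lower. Klf1 then fell by 2.63 on the log2 scale (adjusted p = 9.23e-06), Gata1 by 2.64 (0.000132), Epor by 1.38 (3.96e-06) and Car1 by 4.01 (8.04e-05). Gfi1b (-0.05, adjusted p = 0.958) and Car2 (-0.23, adjusted p = 0.812) did not pass. Leaving this library out also lowers the spread that all groups share in the fit. Over the lists, leaving out this library together with rEC B library 1 left 10 of 13 heme synthesis genes, 14 of 19 membrane and skeleton genes and all 16 of 16 cell cycle genes lower in rEC cells, and none of these higher. In that fit 1557 of the 14083 genes passed in either direction, so no more than this number passed as lower. All 7 of 7 mast cell and basophil markers and all 6 of 6 eosinophil markers were lower in the same fit. The 2 remaining rEC libraries, 1 with no recipient named and 1 titled secondary, both lay below the native range for these 4 genes.

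The other erythroid genes were read from lists of the same pathway. Of 13 heme synthesis genes, 9 were highest in rEC library 2 and 1 was lowest, among the former Cpox at 147 FPKM, and of 11 iron handling genes 10 were highest, where 30.4% of all genes were highest and 43.4% lowest in it. Of 19 red cell membrane and skeleton genes 12 were highest in it, such as the blood group protein Ermap (147 FPKM against 0.600 to 26.4 in the other 5), the water channel Aqp1 (287 against 16.2 to 97.9) and the skeleton protein Add2 (90.3 against 0.115 to 19.0). Other erythroid lists were divided. Of 17 transcription factors and cofactors 3 were highest and 9 lowest in that library, of 12 erythropoietin signalling genes 4 and 8, of 12 red cell enzyme and maturation genes 5 and 6, and of 6 erythroid markers 2 and none. Alas2 stood at 3.31 FPKM in it against 13.8, 23.1 and 90.7 in the native libraries, and the anion exchanger Slc4a1 at 4.40 against 20.0, 22.8 and 161. Both were lower still in rEC library 3 (1.16 and 1.06 FPKM). The feedback inhibitors of cytokine signalling Cish and Socs3 were the lowest of the 6 libraries (2.95 and 0.546 FPKM), while Fam132b, which encodes the hormone erythroferrone, was the highest (5.92). The 6 macrophage markers were all highest in the same library too (summed level 150 FPKM, against 16.4 and 27.3 in rEC libraries 1 and 3 and 20.0 to 25.6 in native ones). Their part in the erythroid levels was not tested.

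**Figure D2:**
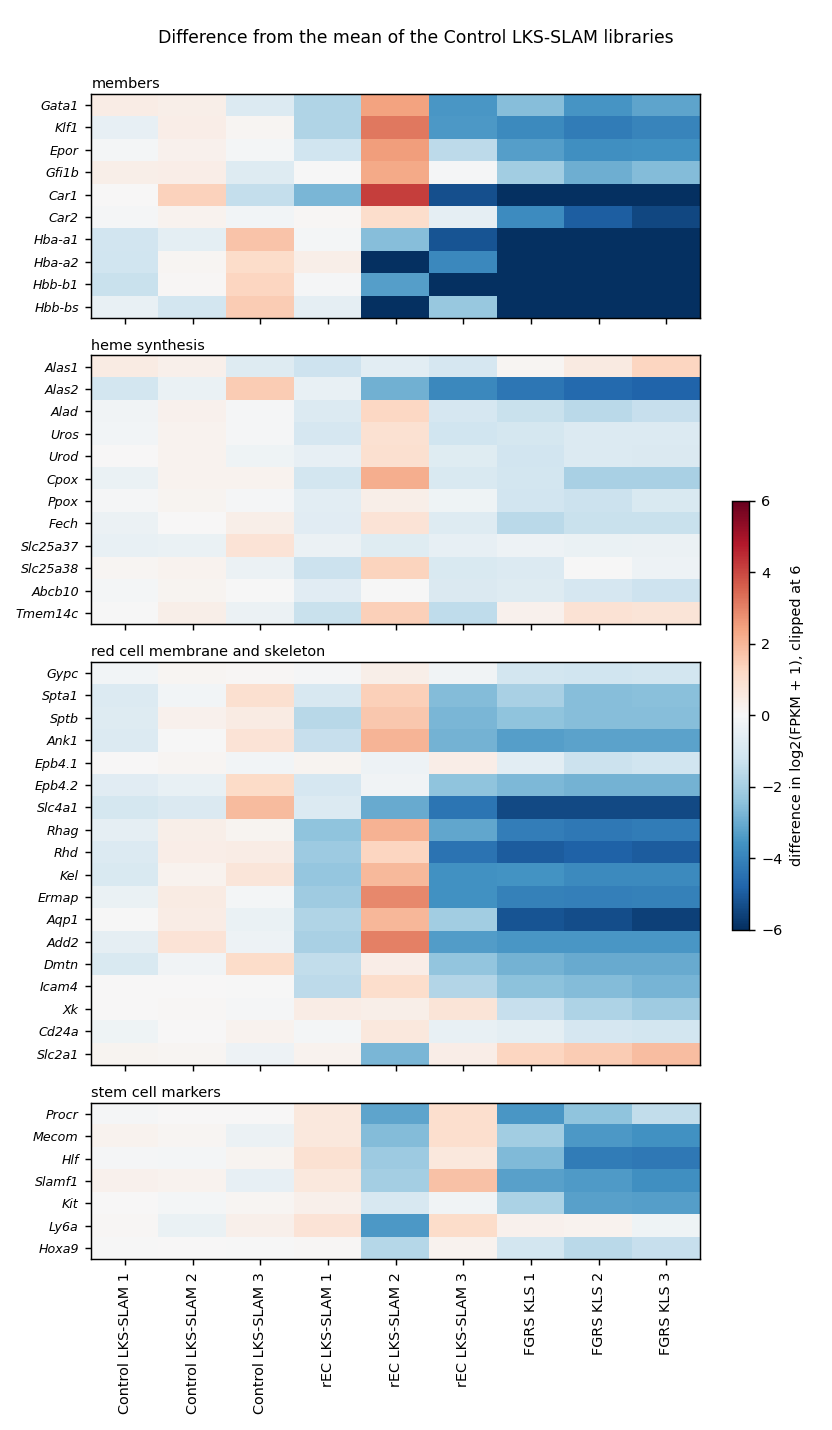
Rows are genes in 4 blocks (the 10 genes, and genes of heme synthesis, of red cell membrane and skeleton and of stem cells, a few list members not drawn) and columns the 9 LKS-SLAM and FGRS KLS libraries. Colour gives the difference in log2(FPKM + 1) from the mean of the 3 Control LKS-SLAM libraries, clipped at 6 in either direction. The rEC LKS-SLAM 2 column is red for the regulators, Car1, Cpox, Ermap and Add2 and blue for the globins, Alas2, Slc4a1 and the stem cell markers.

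Over rEC and Control LKS-SLAM cells as groups, few members of these lists passed. None of 17 erythroid transcription factors and cofactors, 13 heme synthesis genes, 11 iron genes or 11 erythropoietin signalling genes did, where 1.32% of all genes passed. Slc4a1 fell by 2.73 on the log2 scale (adjusted p = 0.0306), the 1 of 19 membrane genes that passed, and did not pass with quantile normalisation, and the lipoxygenase Alox15, 1 of 12 red cell enzyme and maturation genes, fell by 3.89 (adjusted p = 0.00257). Markers of granulocytes moved in the same direction, with 6 of 8 neutrophil markers, 4 of 7 mast cell and basophil markers and 2 of 6 eosinophil markers lower in rEC cells, where 1.25% of all genes were. Summed eosinophil marker levels were 36.9 to 4582 FPKM in native and 1.91 to 377 in rEC libraries. Their part in the erythroid differences was not tested.

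In the cultured FGRS KLS cells the 4 regulators stood at 3.08 FPKM or less. Gata1 stood at 2.42, 0.755 and 1.23 FPKM in libraries 1, 2 and 3, Klf1 at 0.578, 0.220 and 0.451, and Epor at 1.09, 0.631 and 0.673. Gfi1b stood at 3.08, 1.22 and 1.83 FPKM and Car1 at 0.0784, 0.296 and 0.719. Car2 kept the highest level of the 6, at 32.0, 13.5 and 9.38 FPKM. For all 6 genes every FGRS library lay below every native LKS-SLAM library.

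Against native LKS-SLAM cells all 10 of the 10 genes passed as lower, where 31.7% of all genes tested did. All 10 also had groups that did not overlap in that direction, where 36.2% of all genes did. On the log2(FPKM + 1) scale, which understates the change of low genes, Car1 fell by 6.35 ± 1.27 (SE, adjusted p = 0.000383) and Car2 by 4.73 ± 0.40 (1.94e-08). Klf1 fell by 4.01 ± 0.88 (adjusted p = 0.000851), Epor by 3.54 ± 0.57 (4.94e-05), Gata1 by 3.09 ± 0.80 (0.00345) and Gfi1b by 2.54 ± 0.40 (3.84e-05). The median over the 10 genes was -5.54 and that over all genes -0.19. Quantile normalisation moved the latter to 0.02, and all 10 genes passed as lower under it as well. The call for Hbb-bs (adjusted p = 0.0233) ended without Control library 3 (0.0809), without FGRS library 2 (0.0546) or without FGRS library 3 (0.0539), and no other call ended under an alternative setting.

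Other genes of the pathway were lower in FGRS cells too, to be read against the 31.7% of all genes that passed as lower and the 17.1% that passed as higher. Of 17 erythroid transcription factors and cofactors 13 fell and 1 rose. Gata2, which precedes GATA1 in progenitors, fell by 4.10 (13.5 against 228 FPKM). The GATA1 cofactor Zfpm1 fell by 3.30 (7.97 against 83.9) and the progenitor factor Tal1 fell by 3.03 (4.38 against 40.6). The gene that rose was Spi1 (by 1.61, 241 against 76.3 FPKM), 1 of the 4 conversion factors, and it did not pass with quantile normalisation. Of 19 red cell membrane and skeleton genes 17 fell and the glucose transporter Slc2a1 rose by 1.57. Slc4a1 was listed at 0 in all 3 FGRS libraries, and Aqp1 fell by 5.37. Of 13 heme synthesis genes 8 fell, led by Alas2 (by 4.59, 0.339 against 42.6 FPKM) and Cpox (by 1.65). Iron handling went differently: 4 of 11 genes rose and 1, the transferrin sensor Tfr2, fell (by 2.41), with heme oxygenase Hmox1 up by 4.89 (400 against 11.5 FPKM) and the ferritin chains Ftl1 by 1.99 and Fth1 by 1.64. Among 11 erythropoietin signalling genes 6 fell, led by Cish (by 4.61), and the kinase Lyn rose by 1.19.

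Markers of other cells moved in the same comparison. All 6 macrophage markers rose (C1qb by 4.92, Cd68 by 3.87), with summed levels of 160.5 to 931 FPKM in FGRS and 20.0 to 25.6 in native libraries. Of 8 stem cell markers 7 fell and of 7 megakaryocyte markers 5 fell, where 31.7% of all genes passed as lower and 17.1% as higher. The part of a changed cell make-up in the erythroid differences was not tested.

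Against rEC LKS-SLAM cells 8 of the 10 genes passed as lower in FGRS cells, where 27.8% of all genes tested did, and 9 had groups that did not overlap, where 20.3% did. Car1 fell by 5.05 ± 1.27 (SE, adjusted p = 0.00294), Car2 by 4.92 ± 0.40 (6.96e-09), Epor by 3.45 ± 0.57 (6.64e-05), Klf1 fell by 3.30 ± 0.88 (0.00435) and Gfi1b by 3.26 ± 0.40 (1.84e-06). Gata1 fell by 2.14 ± 0.80 (adjusted p = 0.0349) with overlapping groups, since rEC library 3 (0.805 FPKM) lay inside the FGRS range. That call ended under 8 of 14 alternatives, among them without rEC library 2 (-0.45, adjusted p = 0.324), without FGRS library 2 (0.108), without FGRS library 3 (0.0813) and with the 2 groups fitted alone (0.367, the highest). Hba-a2 (adjusted p = 0.147) and Hbb-bs (0.238) did not pass. Under alternatives Hba-a2 passed in 3 of 14, among them without rEC library 2 (0.0310), and Hbb-bs in 1 of 14. With only these 2 groups in the fit, 1 of the 10 genes, Car2, passed. Both comparisons with FGRS cells share the FGRS libraries. Of the lists, 13 of 17 transcription factors and cofactors and 17 of 19 membrane genes fell (27.8% of all genes did, and 17.2% rose), and 5 of 13 heme synthesis genes fell while Alas1, the housekeeping counterpart of Alas2, rose by 1.60 and Tmem14c by 1.13.

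**Figure D3:**
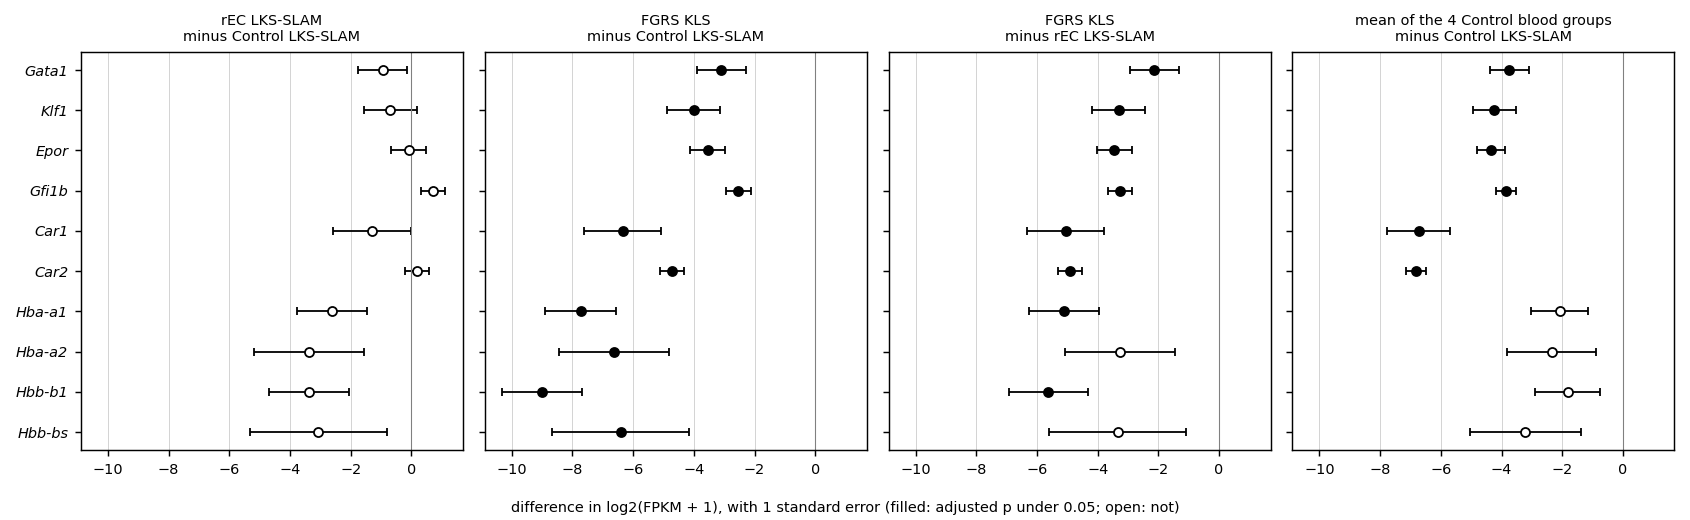
The 4 panels give, for each of the 10 genes, the difference in log2(FPKM + 1) on the horizontal axis with 1 standard error, for rEC against Control LKS-SLAM, FGRS KLS against each of them, and the mean of the 4 Control blood groups against Control LKS-SLAM. Filled points passed at an adjusted p under 0.05. All 10 points are open in the first panel and all 10 are filled in the second.

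The globin genes varied differently from the regulators. Copies of a type share long stretches of sequence. Hba-a1 (chr11:32283511-32284465, plus strand) and Hba-a2 (chr11:32296489-32297298, plus strand) lie 12.0 kb apart, and 67.3% of the 51-base windows (the length of 1 read) of the first annotated Hba-a1 transcript are also in Hba-a2, and 86.7% in the other direction. Of the beta globins, Hbb-bs (chr7:103826534-103828096, minus strand) shares 65.7% of its windows with its neighbour Hbb-bt, which has no row in the table. Hbb-b1 has no gene on the GENCODE reference chromosomes under that symbol, and no position is given. How reads were divided between such copies is uncertain, and values near 0 for 1 copy beside a high value for the other should be read in this light: Hba-a2 was at or below 0.0330 FPKM in 4 of the 27 libraries outside the culture, with Hba-a1 at 9.13 to 58.6 in the same 4. Hbb-bs was at 1 FPKM or more in 13 of the 21 blood libraries and 5 of the 6 LKS-SLAM libraries. Its lowest blood value was 0.00313 FPKM, while Hbb-b1 was at 18.7 or more in every blood library. The sums of the 2 alpha rows and of the 2 beta rows are therefore given beside the single genes.

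The 250 bases before the start of an alpha and a beta globin gene are printed because rows of the 2 types varied together over the 30 libraries. Between Hba-a1 and Hbb-b1, for which no window was found, r was 0.966. Between Hba-a1 and Hbb-bs, the pair printed, r was 0.690, and these 2 genes lie on different chromosomes. The windows are written as for the regulators, from chr11:32283422-32283671, plus strand and chr7:103827929-103828178, minus strand, with the same 2 kinds of word in capitals.
Hba-a1: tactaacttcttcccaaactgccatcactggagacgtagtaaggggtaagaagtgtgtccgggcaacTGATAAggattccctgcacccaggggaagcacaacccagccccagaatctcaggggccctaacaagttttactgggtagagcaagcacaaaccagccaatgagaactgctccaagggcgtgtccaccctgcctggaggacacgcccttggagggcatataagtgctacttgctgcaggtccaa
Hbb-bs: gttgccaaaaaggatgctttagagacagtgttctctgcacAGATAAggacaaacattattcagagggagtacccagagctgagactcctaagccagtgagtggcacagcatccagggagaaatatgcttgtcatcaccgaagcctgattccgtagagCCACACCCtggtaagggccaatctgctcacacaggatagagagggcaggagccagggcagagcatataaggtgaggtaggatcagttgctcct
The Hba-a1 window held 1 GATA word and no CACCC-type match, and the Hbb-bs window held 1 of each. The window of Hba-a2 shares an identical run of 247 bases with that of Hba-a1.

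In native LKS-SLAM libraries 1, 2 and 3 Hba-a1 stood at 94.8, 142 and 697 FPKM and Hbb-b1 at 200, 540 and 1235. Hba-a2 stood at 42.0, 106 and 214 FPKM and Hbb-bs at 61.5, 38.6 and 247. Library 3 was the highest for all 4 globins, and it was also the highest of the 6 LKS-SLAM libraries for Alas2 (90.7 FPKM) and Slc4a1 (161), while it was the lowest native library for Gata1 and Car1. In rEC libraries 1, 2 and 3 Hba-a1 stood at 193, 35.1 and 4.89 FPKM and Hbb-b1 at 486, 50.4 and 3.77. Hba-a2 stood at 125, 0.0330 and 5.80 FPKM and Hbb-bs at 57.7, 0.00485 and 16.8. The library with the highest regulators, rEC 2, had summed globins of 85.6 FPKM, against 398, 827 and 2393 in the native libraries and 862 and 31.3 in the other 2 rEC libraries. The sum of the 2 alpha rows differed by -2.62 ± 1.24 (SE, adjusted p = 0.516) between rEC and Control LKS-SLAM cells and that of the 2 beta rows by -2.85 ± 1.22 (0.430), and neither passed.

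All 4 globins were listed at 0 in all 3 FGRS KLS libraries. No fold change is given against a group listed at 0. Of the 8181 genes at 1 FPKM or more in each of the other 27 libraries, 2 had a value of 0 in every FGRS library, and both were globins, Hba-a1 and Hbb-b1. No gene at 10 FPKM or more in each of the others was. The further beta globin row Hbb-b2 was not at 0 there, with 15.0, 10.5 and 11.8 FPKM in FGRS libraries 1, 2 and 3 against 74.9 to 438 in native LKS-SLAM cells, and fell by 3.53 on the log2 scale (adjusted p = 0.0119). Alas2 stood at 0.600, 0.275 and 0.143 FPKM in the same libraries. The summed alpha rows passed as lower in FGRS cells in both comparisons with LKS-SLAM cells (adjusted p = 2.01e-05 against Control and 0.000934 against rEC). So did the sum of Hbb-b1 and Hbb-bs (4.97e-06 and 0.000265). This beta sum leaves out Hbb-b2, so its value of 0 in FGRS cells does not stand for all beta globin rows.

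In blood the regulators and Car1 were near 0 and the globins were not. Over the 21 blood libraries Klf1 reached at most 0.727 FPKM, Epor 0.253, Gfi1b 0.987 and Car1 0.555. Gata1 was at 1 FPKM or more in 4 of the 21, and these were the 4 CD4 T cell libraries, with 1.83 and 2.96 FPKM in Control and 1.72 and 2.33 in rEC cells. Gata1 in CD4 cells (2.40 ± 0.79 FPKM in Control, n = 2) overlapped with FGRS KLS cells (1.47 ± 0.86, n = 3) and lay above CD8 cells (0.116 ± 0.101, n = 3). Gfi1b was detectable in myeloid cells, at 0.751 and 0.987 FPKM in Control and 0.536 and 0.399 in rEC libraries, and at most 0.0790 in any lymphocyte library. Car2 was ordered by cell type. It stood at 13.6, 19.3 and 15.7 FPKM in Control B cells and 8.65, 18.2 and 18.2 in rEC B cells, where the lowest value belongs to the library with T cell transcripts. It lay at 0.832 to 4.52 FPKM in the 10 T cell libraries and at 0.0830 to 0.586 in the 4 myeloid libraries, and these 3 ranges did not overlap.

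The order of group means ran from LKS-SLAM cells downwards for the regulators and carbonic anhydrases. For Klf1, Epor, Gfi1b, Gata1, Car1 and Car2 the rEC and Control LKS-SLAM groups held the top places and overlapped with each other, and both means lay above those of all other groups. Control LKS-SLAM libraries did not overlap with the group that came next, which was Control B for Klf1 (0.530 ± 0.265 FPKM), Control CD4 for Gata1, and FGRS KLS for Epor, Gfi1b, Car1 and Car2. FGRS KLS cells (18.3 ± 12.0 FPKM) and Control B cells (16.2 ± 2.89) overlapped for Car2. For the globins Control LKS-SLAM cells were at the top (rEC B cells for Hba-a2), FGRS KLS cells were last and did not overlap with the group before them, and all other neighbours overlapped except rEC B and Control CD8 cells for Hba-a1.

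Against native LKS-SLAM cells the mean of the 4 Control blood groups was lower for 6 of the 10 genes, the regulators and carbonic anhydrases, where 42.6% of all genes tested passed as lower. The same 6 had no overlap between any Control blood library and any native LKS-SLAM library, where 26.1% of all genes had none in that direction. Car2 fell by 6.81 ± 0.33 (SE, adjusted p = 3.03e-13), Car1 by 6.74 ± 1.03 (8.63e-06), Epor by 4.34 ± 0.47 (7.22e-08), Klf1 by 4.23 ± 0.71 (2.64e-05), Gfi1b by 3.86 ± 0.33 (1.91e-09) and Gata1 by 3.74 ± 0.65 (4.10e-05). None of the 4 globins passed: Hba-a1 differed by -2.08 ± 0.94 (adjusted p = 0.0586), Hba-a2 by -2.34 ± 1.46 (0.168), Hbb-b1 by -1.82 ± 1.07 (0.143) and Hbb-bs by -3.22 ± 1.83 (0.130). Hba-a1 passed under 4 of 22 alternatives, namely without Control LKS-SLAM library 1 (0.0482), without Control myeloid library 2 (0.0293), without Control B library 3 (0.0278) and with these groups fitted alone (0.0475), and Hba-a2 without Control myeloid library 2 (0.0480). Of the lists, 18 of 19 membrane and skeleton genes, 13 of 17 transcription factors and cofactors and 8 of 13 heme synthesis genes fell, and all 16 of 16 cell cycle genes fell with them.

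Globin levels spread widely within each blood group. Summed over the 4 globins, Control myeloid libraries 1 and 2 stood at 52.5 and 904 FPKM and rEC myeloid libraries at 27.9 and 399. Control B libraries 1, 2 and 3 stood at 552, 106 and 2061 FPKM and rEC B libraries at 983, 285 and 160. T cell libraries ran from 64.1 to 666 FPKM over 10 libraries, with a median of 258. The coefficient of variation within a group was 38.1 to 142% for the summed globins over the 10 groups other than FGRS KLS. The globin sum took 0.00528 to 0.392% of the summed FPKM of a grouped blood library. Within each library the beta and alpha sums kept close to 1 ratio, from 1.44 to 2.42 with a median of 1.83 over the 27 libraries outside the culture. The beta sum and the globin sum hold Hbb-b1 and Hbb-bs and leave out the further beta row Hbb-b2.

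Between origins none of the 10 genes passed in any blood cell type. The shares of all genes that passed were 0.227% in myeloid cells, 0% in B cells, 0.0213% in CD4 cells and 1.13% in CD8 cells. The largest differences in size on the log2 scale were in globins, such as Hba-a2 in CD4 cells (3.02 ± 2.21, adjusted p = 1) and Hba-a1 in B cells (-1.64 ± 1.16, adjusted p = 1). For Hba-a2 the 2 Control CD4 libraries stood at 0.0304 and 84.2 FPKM, and the division of reads between copies is uncertain. The sum of the 2 alpha rows differed by 1.02 ± 1.52 (SE) in CD4 cells. Car2 in CD8 cells differed by -0.74 ± 0.40 (adjusted p = 0.781), with 1.55 ± 1.07 FPKM in rEC and 3.19 ± 1.35 in Control cells (SD, n = 3 each). Control CD8 libraries held B cell and macrophage transcripts (Cd79a 69.7 to 178 FPKM, Csf1r 7.54 to 29.1). Both were lower in rEC CD8 libraries (0.849 to 18.7 and 0.0125 to 0.790 FPKM). The part of such transcripts in the Car2 difference was not tested. An F test of whether the origin difference itself varied over the 5 sorted cell types called none of the 10 genes, where it called 0.277% of all genes, and its smallest unadjusted p among the 10 was 0.217 (Hbb-b1).

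The unassigned B220+ library of clone 47G1 had the highest globin sum of the 30 libraries. Hba-a2 (1021 FPKM) and Hbb-b1 (2292) were the highest of all 30, and Hba-a1 (562) was below Control LKS-SLAM library 3. Their sum with Hbb-bs (229) came to 4106 FPKM or 0.728% of its summed FPKM. The rEC B library 2, which is titled with the same clone, had a globin sum of 285 FPKM. The library's Alas2 was the highest of the 30 as well, at 92.3 FPKM, and its Slc4a1 the highest among blood libraries at 1.90. Its B cell markers summed to 6126 FPKM, within the 5866 to 6594 of the Control B libraries, and Gata1, Gfi1b and Car1 were listed at 0 in it.

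The genes closest to each profile were found by ranking them by Pearson's r of log2(FPKM + 1) over the 30 libraries, with 11359 genes ranked that reached 5 FPKM in some library. For Klf1 the closest were Asb17os (r = 0.989), an opposite-strand transcript whose reads cannot be told from those of the other strand in these libraries,, Tspan8 (0.987), Add2 (0.986), Ermap (0.985) and Rhag (0.984), and for Gata1 Mfsd2b (0.935), Slc38a5, Cldn13, Add2 and Myh10 (0.923). For Car2 the 5 closest included Slc43a1 (0.963), Xk, Pank1 and Fgfrl1 (0.951). For the mean of the 4 globins they included Alas2 (0.940), Hbb-b2 (0.874), Peg13 (0.701) and Zfp46 (0.681). The libraries share groups, and rEC LKS-SLAM library 2 is the extreme point for Klf1 and Gata1. Without it 4 of the 5 genes of Klf1 stayed among its first 5 (Ermap became the sixth), 2 of the 5 of Gata1 did and none of those of Car2, whose 5 genes then ranked 6 to 18. Between a globin and a regulator or carbonic anhydrase r ran from -0.170 to 0.272.

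**Figure D4:**
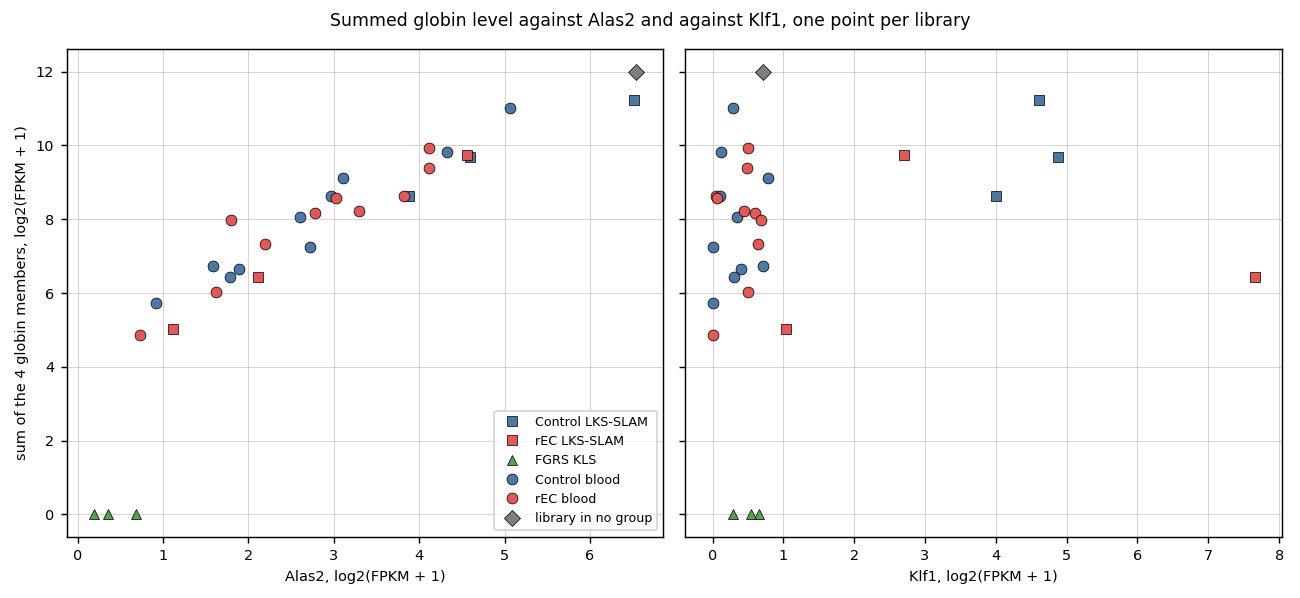
Each point is 1 library, with the sum of the 4 globins as log2(FPKM + 1) on the vertical axis and Alas2 (left) or Klf1 (right) on the same scale on the horizontal axis; squares are LKS-SLAM, circles blood, triangles FGRS KLS and the diamond the library in no group. Globins and Alas2 rise together from the FGRS libraries at 0 to the diamond at 4106 FPKM. The right panel shows rEC LKS-SLAM 2 far to the right (Klf1 201 FPKM) with a low globin sum.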

How the data were processed

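The deposited table holds FPKM per gene and library as the authors made it. Build mm10, Cufflinks 2.2.1, TopHat2 2.1.0, Trimmomatic 0.36, bcl2fastq 2.17 and FastQC 0.11.5 are listed in the submitters' processing notes, and the labels' protocols give a poly(A) library without strand and 51-base paired ends. How reads shared by gene copies were divided is not given in the sources used here, so single globin rows are uncertain. FPKM hold no counts, so no counting error is given.

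FPKM were set on log2(FPKM + 1). Genes at 1 FPKM or more in 2 of the 29 grouped libraries were kept (14083, all 10 described genes among them). limma 3.58.1 in R 4.3.3 was fitted with 1 mean per group (11 groups, 18 residual degrees of freedom) and an intensity trend, two-sided, with Benjamini-Hochberg adjustment over all genes tested, and a gene passed at an adjusted p under 0.05. All adjusted p-values in the text come from this fit or a named alternative to it. The 8 comparisons were rEC against Control in 5 cell types, FGRS KLS against both LKS-SLAM groups, and the mean of the 4 Control blood groups against Control LKS-SLAM. Relative depth was read from the smallest steps of the FPKM of low genes. On simulated data changed by 2 on the log2 scale 84.5 to 97.0% of 200 genes were recovered over the 8 comparisons, and 26.5 to 63.5% of those changed by 1. The 200 genes were drawn at random, each with its own spread, so these shares do not hold for the 10 genes. Between rEC and Control LKS-SLAM cells the SE of the 10 ran from 0.40 (Gfi1b) to 2.26 (Hbb-bs).

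The 10 genes and the 18 lists of genes were chosen with earlier results of these data known. From each list the text names up to 4 genes that passed with the largest differences, and further genes named for a single library (such as Ermap, Add2, Cish, Prg2 and Kit) were chosen after their values were seen. Gene positions are from GENCODE M21 (GRCm38, the same assembly as mm10) and promoters from RefSeq (GRCm38.p6). Alternatives were other pseudocounts and filters, quantile normalisation, array weights, no trend, the groups alone, the replicate number as a term and each library left out. Chosen after seeing the data were leaving out rEC LKS-SLAM 2 and rEC B 1 together, and summing the globin copies. Python 3.11.15 with numpy 2.4.6, pandas 2.3.3 and matplotlib 3.10.9 did the rest. A few genes of the lists and of the likeness rankings are counted but not reported here by name.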

Additional observations from a re-analysis of the deposited data

Results flagged for a closer look

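The B220+ library that fits no group, which entered no comparison, lay above the highest of the 3 Control B libraries for all 4 globins and for Epor. Hba-a1 stood at 562 FPKM against 450, Hba-a2 at 1021 against 205, Hbb-b1 at 2292 against 1204 and Hbb-bs at 229 against 202. Epor stood at 0.0547 FPKM against 0, a level at which the receptor is barely measurable. The erythroid markers of the library summed to 117 FPKM against 23.5 to 55.1 in the Control B libraries, and its neutrophil markers to 127 against 1.22 to 22.2. The erythroid sum was mostly Alas2, at 92.3 FPKM against 14.0 ± 16.2 in Control B cells (mean ± SD). Tfrc stood at 20.8 against 20.3 ± 1.15, and the other erythroid markers at 1.90 or less. The part of other cells in these values was not tested. No group held 4 libraries, so no library was tested for its distance from the rest of its group.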

How the results depend on the processing

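Over the 10 genes and the 4 comparisons among LKS-SLAM, FGRS KLS and Control blood cells, 595 of the values under alternatives kept their direction and their side of the threshold, 22 newly passed, 17 no longer passed and 16 changed sign, all 16 of the latter between rEC and Control LKS-SLAM cells. There the number of the 10 genes that passed went from 0 to 5 with array weights (which stopped before convergence), to 0 to 4 when single libraries were left out, and to 4 without both rEC LKS-SLAM 2 and rEC B 1. Leaving out single libraries moved the difference over -2.64 to 0.32 for Gata1, -2.63 to 0.68 for Klf1, -1.38 to 0.65 for Epor, -0.046 to 1.11 for Gfi1b, -4.01 to 0.69 for Car1 and -0.23 to 0.56 for Car2. With array weights it was -0.36 for Gfi1b, -0.027 for Car2, 0.47 for Hba-a1, 0.56 for Hba-a2, 0.20 for Hbb-b1 and 0.21 for Hbb-bs, and without both libraries -0.046 for Gfi1b and -0.23 for Car2. Without rEC library 1 Hbb-b1 passed (-5.03, adjusted p = 0.0318). In FGRS against rEC LKS-SLAM cells 1 of the 10 genes passed with the 2 groups fitted alone, where fewer libraries set the spread; the cause of the other moves was not tested. Genes called over all 14083 moved from 186 to between 0 (groups alone) and 6240 (array weights) for rEC against Control LKS-SLAM, from 6335 to between 820 and 11581 for FGRS against rEC, from 32 to between 0 and 368 in myeloid, 0 to 151 in B, 3 to 50 in CD4 and 159 to between 53 and 1764 in CD8 cells. Quantile normalisation changed the split of higher and lower genes from 2411 and 4459 to 2911 and 2906 for FGRS against Control, from 2799 and 6002 to 5088 and 4240 for blood (median over all genes -0.28 to 0.09), and from 10 and 176 to 83 and 123 for rEC against Control LKS-SLAM; of the list genes that had passed in these, 1 iron gene in blood changed sign. Replicate numbers did not pair the libraries (r of same-numbered deviations -0.089 to 0.065 for FGRS and Control LKS-SLAM); with the replicate block 10 of the 10 genes passed for FGRS against Control LKS-SLAM (5748 genes in all), 6 for blood (10236) and 0 in myeloid cells (0). FPKM give no depth per gene, so values under about 1 FPKM set no fold.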
